A study of Mus musculus with 26 samples.

Results

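Primary hepatocytes and pancreatic islets of the mouse were compared here, with the 3 hepatocyte samples set against the 3 islet samples out of 26 samples in all. Every one of the 315 assay positions of the panel was included, so no assay was chosen by its level. MicroRNAs (miRNAs) were measured by stem-loop RT-qPCR. In this assay each mature miRNA is copied into DNA from its own stem-loop primer and then amplified with a fluorescent probe. The readout is the threshold cycle (Ct), the PCR cycle at which the signal crosses a threshold, so a lower Ct means more RNA and 1 cycle corresponds to a doubling. Both groups were adult primary tissue from C57BL/6 mice, isolated by routine methods and untreated, with RNA prepared by a phenol-based reagent. They shared the input of 5 ng total RNA per reverse transcription and 40 PCR cycles. The other 20 samples were tail-tip fibroblasts, induced pluripotent stem cells (iPSC) with or without activin A, and embryonic stem cells (ESC). They serve below only to place the levels.

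MiRNAs are short RNAs that guide Argonaute proteins to messenger RNAs and lower their translation or stability. Hepatocytes, the metabolic cells of the liver, and the endocrine cells of the islet both arise from definitive endoderm. Hepatocytes are known for an miRNA pool dominated by very few species, and islets, a mixture of endocrine cell types with neighbouring stroma and vessels, for miRNAs that they share with neurons. The labels do not say whether the 3 samples of a cell type came from separate animals, or whether several animals were pooled. The p-values below thus reflect only variation among samples, and that variation may be technical. For the fold changes it includes variation among the fibroblast, iPSC and activin-treated iPSC samples, except where hepatocytes and islets were fitted alone. The assays carry plate positions such as A12 (position 12 of set A) and no miRNA names in the files used here. For that reason no hepatocyte or islet marker miRNA could be looked up, the labelled cell types could not be checked against markers, and no miRNA sequence is given. In bulk RNA, fewer cells of a type and less RNA per cell cannot be told apart.

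More of the panel was detected in islets than in hepatocytes. Taking a Ct below 35 as detected, the islet samples had 273, 267 and 268 detected assays and the hepatocyte samples 219, 217 and 210. The groups did not overlap. The means were 269.3 ± 3.21 (SD, n = 3) and 215.3 ± 4.73 (SD, n = 3), a difference of -54 for hepatocytes minus islets (2-sided exact permutation p = 0.1, the smallest that 3 against 3 samples allow). Detection held in all 6 samples for 176 assays and in none for 19. Each hepatocyte sample had between 52 and 62 assays without any Ct, against 16 to 30 in islets. The median Ct over the assays with a Ct was 30.1, 29.8 and 29.8 in hepatocytes and 27.1, 27.9 and 28.5 in islets.

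In 27 of 315 assays (8.57%) all islet samples were detected and no hepatocyte sample was. These assays were of moderate to low abundance in islets, with mean islet Ct from 26.6 to 34.1 and a median of 30.8. For 6 of them no hepatocyte sample gave any Ct. C48 read 23.1, 27.2 and 29.4 in islets, and in hepatocytes it gave one Ct, 35.01 in replicate 3. B56 read 26.6, 28.3 and 28.6 in islets, with no Ct in any hepatocyte sample. B08 read 27.02, 30.2 and 28.5 in islets, and in hepatocytes 37.1 and 39.1 with one empty value. In C48 and B08 the lowest hepatocyte Ct lay more than 5 cycles above the highest islet Ct. C46, B34 and A24 had the same form, each with islet Ct between 27.1 and 31.4 and a single hepatocyte Ct, of 36.6, 35.1 and 36.5. B68 read 28.5, 30.2 and 28.2 in islets and 35.4, 35.6 and 36.0 in hepatocytes.

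Many of these 27 assays were also detected in cells other than islets. In every iPSC sample 14 of them were detected, likewise 14 in every ESC sample, 18 in every activin-treated iPSC sample and 5 in every fibroblast sample. The share of the whole panel detected in this way was not counted. These numbers therefore do not show whether the 27 differ from the other assays. C48, C46, A88 and A61 were detected in all 20 samples that are neither hepatocytes nor islets, so the hepatocytes were the only samples of the series in which these assays were not detected. B68 was detected in 1 of those 20 samples, D20 in 2, D13 in 4, B17 in 5, B56 in 6 and B91 in 7. C89 and C03 were detected in 0 of the 20. C89 read 32.5, 34.5 and 32.2 in islets and C03 read 32.8, 33.2 and 34.1, and neither gave a Ct in a hepatocyte sample. Both stood within a few cycles of the detection limit.

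B01 alone (1 of 315, 0.317%) was detected in every hepatocyte sample and in no islet sample. Its Ct was 21.1, 22.04 and 21.7 in hepatocytes. In islets it was 39.8 and 35.7, with no Ct in the third sample. Outside hepatocytes B01 was detected in 1 sample, a fibroblast sample at 33.6. It was thus among the more abundant assays of hepatocytes and at or past the limit nearly everywhere else.

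The levels were next put on a common scale. Log2 relative expression was a reference Ct minus the assay Ct, with values past 35 or empty set to 35. The main reference was the one that the authors subtracted, named in the labels as the U6 small nuclear RNA RNU6 and recovered from their deposited fold changes once for sets A and B together, once for set C and once for set D. The other reference, called the mean Ct below, was the average over the assays that all 26 samples detected, which numbered 87 in A and B, 26 in C and 9 in D. An assay was tested if at least 50% of either group was detected, which left 276 assays, and it was called at an adjusted p below 0.05 (limma, Benjamini-Hochberg).

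Relative to RNU6, 117 of 276 assays (42.4%) were called lower in hepatocytes and 4 (1.45%) higher. This fit takes its spread from 5 kinds of sample, and fitted on the 6 hepatocyte and islet samples alone 67 were called lower and 2 higher. Relative to the mean Ct, 75 (27.2%) were called lower and 21 (7.61%) higher. Of the 27 assays detected in all islet and no hepatocyte samples, only 18 were called lower relative to RNU6. With the mean Ct as reference 14 of them were. Those 27 were picked from the same values, so these counts are no separate support. The median log2 fold change of all tested assays was -3.42 with RNU6 and -0.46 with the mean Ct, so that the balance of the calls followed the reference. Relative to RNU6, 8 assays were called higher without hepatocyte replicate 1, 9 without hepatocyte replicate 3, and 75 lower without islet replicate 3. No assay was called in opposite directions under these references (0 assays), and 69 were called lower and 4 higher under both. Within a position set the choice of reference adds 1 constant to every fold change, so calls under both are not independent. A 95% interval lying wholly within 2 log2 units of 0 was reached by 0 assays with RNU6 and by 16 with the mean Ct.

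**Figure D1:**
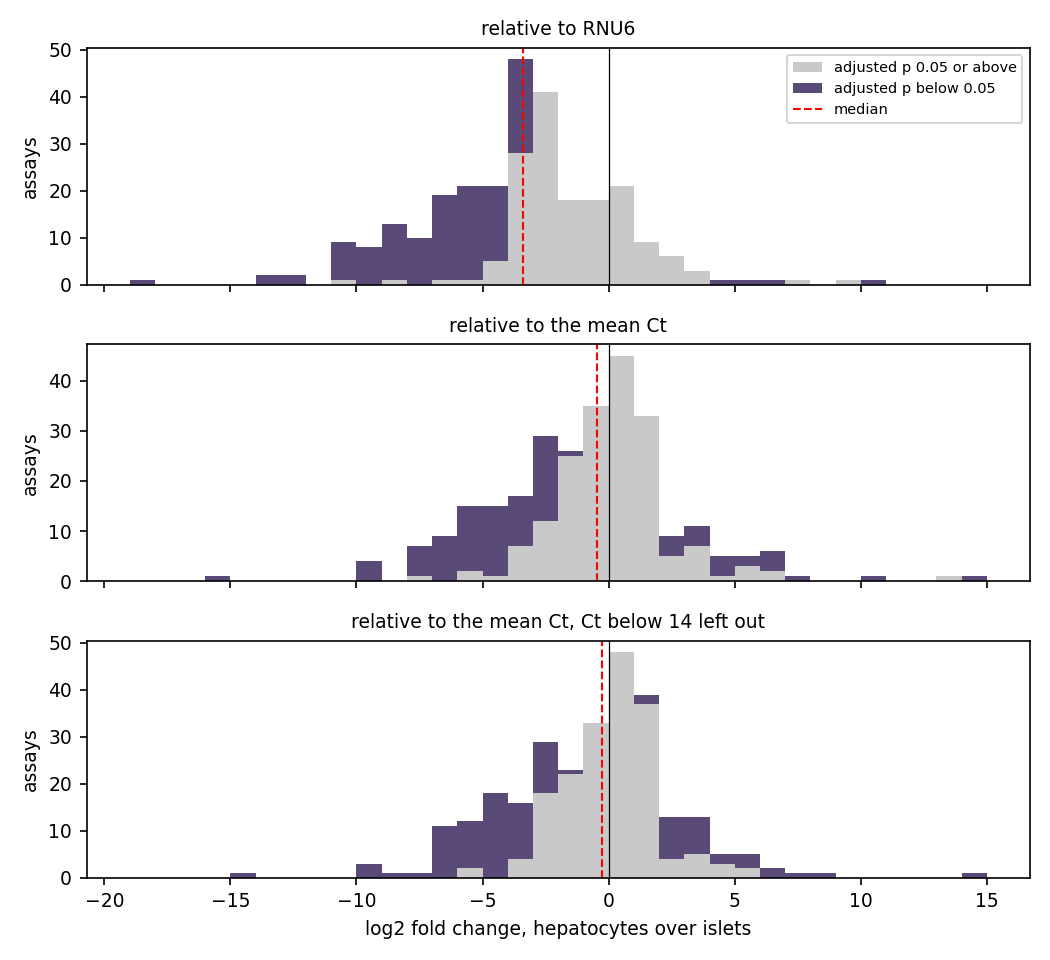
Histograms of log2 fold changes, hepatocytes over islets, of the 276 tested assays (x axis, log2 units; y axis, number of assays) relative to RNU6, to the mean Ct, and to the mean Ct with Ct values below 14 left out. Dark bars are assays with a limma adjusted p below 0.05 and the dashed line is the median, which moves from -3.42 to -0.46 and -0.25.

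The references themselves differed between the samples. In positions A and B the recovered RNU6 Ct, known up to a constant, was -0.07, -0.76 and 4.40 in islet replicates 1, 2 and 3, and 0.13, -1.91 and -1.79 in hepatocytes. Islet replicate 3 thus stood apart from the other islet samples, and the mean difference of hepatocytes minus islets was -2.38 cycles. The mean Ct of the common assays in those positions was 24.7, 25.5 and 26.5 in islets and 25.5, 26.9 and 26.9 in hepatocytes, a difference of 0.83 cycles in the other direction. In positions C the RNU6 Ct was 3.17 in hepatocyte replicate 1 and -0.60 and -0.89 in the other two. In positions D it was -5.21 in that replicate against 1.43 and 0.89. The RNU6 difference was 1.12 cycles for C and -1.93 for D. Of the calls relative to RNU6, 101 of the 117 lower ones lay among the 183 tested assays of A and B, 10 among 70 of C and 6 among 23 of D. The median log2 fold change in those sets was -3.73, -1.61 and -3.60 with RNU6 and -0.52, -0.81 and 0.42 with the mean Ct.

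Raw Ct values need no reference and compare equal RNA inputs. Among the 176 assays detected in all 6 samples, 65 (36.9%) had a higher Ct in every hepatocyte sample than in any islet sample, 19 (10.8%) a lower one, and 92 overlapped. The 19 were A06, A10, A29, A53, A63, A64, A95, B03, B06, B10, B24, B44, B59, B63, B80, B95, C32, C94 and D27.

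**Figure D2:**
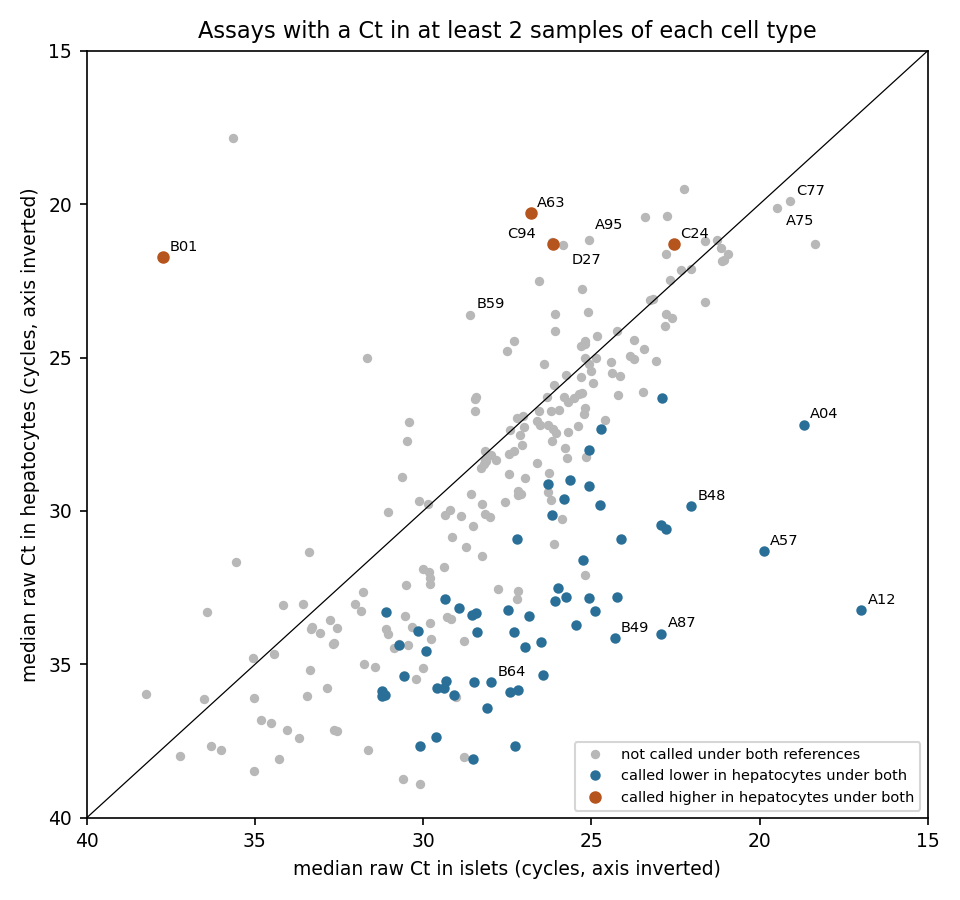
Median raw Ct in islets (x axis, cycles) against hepatocytes (y axis, cycles), both inverted so that more RNA is up and to the right, for assays with a Ct in at least 2 samples of each cell type; the line marks equal Ct. Blue points are the assays called lower in hepatocytes under both references, orange points the 4 called higher (B01, A63, C94 and C24), and grey points the rest.

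The 4 assays called higher in hepatocytes relative to RNU6 were B01, C94, A63 and C24. For B01 the difference on the log2 scale was 10.98 (limma adjusted p = 1.67e-05, SE 1.47) with RNU6 and 14.20 with the mean Ct. Its size depends on the limit of 35, at which all islet samples were set. C94 had a Ct of 20.9, 21.3 and 22.3 in hepatocytes and 25.7, 26.1 and 27.6 in islets. These groups did not overlap, and the log2 fold change was 6.10 (SE 1.63, adjusted p = 0.00592) with RNU6 and 6.90 with the mean Ct. C94 lies in position set C, and with the RNU6 values of A and B used for all sets it was 2.60 (adjusted p = 0.107). A63 had a Ct of 20.3, 17.9 and 20.7 in hepatocytes and 26.8, 25.7 and 27.4 in islets, again without overlap. The fold change on the log2 scale was 4.63 relative to RNU6 (SE 1.18, adjusted p = 0.00414) and 7.85 relative to the mean Ct. Fitted on the 6 samples alone, A63 had an adjusted p of 0.0862.

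C24 differed from these. Its Ct was 21.98, 22.5 and 24.1 in islets and 21.3, 11.5 and 22.3 in hepatocytes, so hepatocyte replicate 2 was about 10 cycles below the others, which overlapped with the islet samples. The log2 fold change was 5.64 relative to RNU6 (SE 2.15, adjusted p = 0.0406), and the call was lost without any one of the 6 samples except hepatocyte replicate 3. With that early Ct left out it was 2.77 relative to RNU6 (adjusted p = 0.231) and 3.38 relative to the mean Ct (adjusted p = 0.00332).

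Across the series the hepatocyte assays fell into different kinds. For B01 and A63, 0 of the 23 samples that are not hepatocytes had a Ct below the highest hepatocyte Ct. A63 had a median of 29.6 in fibroblasts, 29.1 in iPSC and 30.0 in ESC, all higher in Ct than islets. C94 had medians of 22.9, 22.7 and 23.03 in those cells, and 10 of the 23 samples lay below its highest hepatocyte Ct. In C94 the islets were therefore the low group, whereas in A63 and B01 the hepatocytes were the high one.

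Relative to the mean Ct further assays were called higher in hepatocytes. D27 had a Ct of 20.5, 21.3 and 22.1 in hepatocytes and 25.4, 25.8 and 26.5 in islets, and relative to the mean Ct it was higher by 6.70 log2 units (SE 0.75, limma adjusted p = 4.61e-06). Against RNU6 the value was 2.68 (adjusted p = 0.156). With one sample left out it ranged from 1.49 without hepatocyte replicate 2 (adjusted p = 0.489) to 4.41 without hepatocyte replicate 1 (adjusted p = 0.0216). B59 had a Ct of 22.2, 23.6 and 23.7 in hepatocytes and 28.2, 29.5 and 28.6 in islets. Relative to the mean Ct this gave 6.45 log2 units (SE 0.89, adjusted p = 4.22e-05), and relative to RNU6 3.24 (adjusted p = 0.0938). The RNU6 value ranged from 1.90 without islet replicate 2 (adjusted p = 0.319) to 4.93 without islet replicate 3 (adjusted p = 0.0154). In both assays the groups were apart in raw Ct. For B59 no sample of the other 23 (0 samples) had a Ct below the highest hepatocyte Ct, and its medians were 32.3 in fibroblasts, 31.7 in iPSC and 32.4 in ESC. For D27, 7 of the 23 did, and its iPSC and ESC medians were 22.2 and 22.6.

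A95, A06 and B44 were singled out after their values were seen, because 0 of the 23 other samples had a Ct below their highest hepatocyte Ct. A95 read 21.0, 21.2 and 21.3 in hepatocytes and 25.1, 24.4 and 27.7 in islets. A06 read 24.8, 24.8 and 24.6 in hepatocytes and 27.5, 27.1 and 31.6 in islets. B44 read 21.4, 23.4 and 22.5 in hepatocytes and 25.2, 27.6 and 26.6 in islets. Relative to the mean Ct their log2 fold changes were 5.39, 4.87 and 4.84. With RNU6 as reference they were 2.17, 1.65 and 1.62, none past the threshold. The choice used the same hepatocyte and islet values, so these fold changes are a description with no test. How many of all assays meet this rule was not counted.

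With RNU6 as reference the lower calls reached larger sizes than the higher ones. They included several of the most abundant assays of islets. With the mean Ct as reference, A12 alone of the lower calls exceeded B01 (14.20) in size. A12 had the lowest mean Ct of all assays in islets, at 17.0, 16.0 and 18.3, and read 32.6, 33.3 and 33.2 in hepatocytes. Hepatocytes were lower by a log2 fold change of -18.35 (SE 1.27, limma adjusted p = 4.17e-09) with RNU6 and -15.13 with the mean Ct. No other sample of the series (0 of 20) came within the islet range of A12. Its medians were 34.6 in fibroblasts, 33.5 in iPSC, 33.2 in ESC and 31.2 in activin-treated iPSC, and 9 of the 20 samples had a Ct below every hepatocyte sample. A12 thus stood out as an islet assay, with hepatocytes near the level of the other cells.

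A57 and A04 were likewise abundant in islets. A57 read 21.2, 19.9 and 19.8 there and 31.5, 30.2 and 31.3 in hepatocytes, with a log2 fold change of -13.12 (SE 1.58, adjusted p = 5.17e-06) relative to RNU6. A04 read 18.7, 16.4 and 22.3 in islets and 27.8, 26.2 and 27.2 in hepatocytes, with -10.33 (SE 1.10, adjusted p = 1.28e-06). Neither had another sample within the islet range (0 of 20). Between islets and hepatocytes in Ct lay the pluripotent cells, with medians for A57 of 26.1 in iPSC and 27.2 in ESC, and for A04 of 25.4 and 26.1. A87 read 22.9, 22.8 and 24.9 in islets and 35.2, 33.997 and 33.4 in hepatocytes, with -12.95 (SE 1.23, adjusted p = 4.04e-07). Its fibroblast median of 34.2 was close to hepatocytes and its iPSC and ESC medians were 31.7 and 31.8. With the mean Ct as reference the log2 fold changes of A57, A04 and A87 were -9.91, -7.12 and -9.74.

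The neighbouring positions B48, B49 and B50 were all among the 12 largest falls. B48 read 21.7, 22.03 and 22.1 in islets and 28.8, 30.8 and 29.8 in hepatocytes. B49 read 23.8, 24.6 and 24.3 in islets and 34.2, 35.3 and 33.8 in hepatocytes. B50 read 25.5, 27.7 and 27.3 in islets and, in hepatocytes, 38.8 and 36.5 with one empty value. The log2 fold changes relative to RNU6 were -10.27, -12.47 and -10.56 (limma adjusted p = 0.000119, 1.28e-06 and 3.86e-05). With the mean Ct as reference B48, B49 and B50 stood at -7.05, -9.25 and -7.35. In each of these, 19 of the 20 other samples had a Ct below every hepatocyte sample, and fibroblast medians were 22.3, 25.4 and 29.8. The hepatocytes were thus the low group of the series at these positions. Whether neighbouring positions hold related miRNAs is not known here.

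A47, A14, B27 and B88 showed the same order. A47 read 25.0, 25.4 and 27.01 in islets and 34.8, 33.3 and 33.7 in hepatocytes. A14 read 26.4, 25.1 and 28.1 against 35.4, 36.0 and 33.2, and B27 read 24.8, 26.96 and 27.6 against 34.3, 34.7 and 34.4. B88 read 26.6, 27.5 and 27.4 in islets and 35.9, 38.1 and 34.9 in hepatocytes. In A47, A14 and B27 all 20 other samples had a Ct below every hepatocyte sample, and in B88 19 did. Their log2 fold changes relative to RNU6 ran from -10.50 to -10.20 and relative to the mean Ct from -7.28 to -6.98. B27 was no islet assay, since 19 of the 20 other samples had a Ct below the highest islet Ct.

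B64 was uneven. It read 15.5, 28.0 and 28.0 in islets and 33.8, 37.3 and 35.6 in hepatocytes. The groups did not overlap, but islet replicate 1 was over 12 cycles below the other islet samples. The log2 fold change relative to RNU6 was -13.16 with an SE of 3.06, the widest of these 12 (adjusted p = 0.0021). With a Ct more than 5 cycles below both other samples of its cell type left out and the mean Ct as reference, it was -5.82 and was not called.

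**Figure D3:**
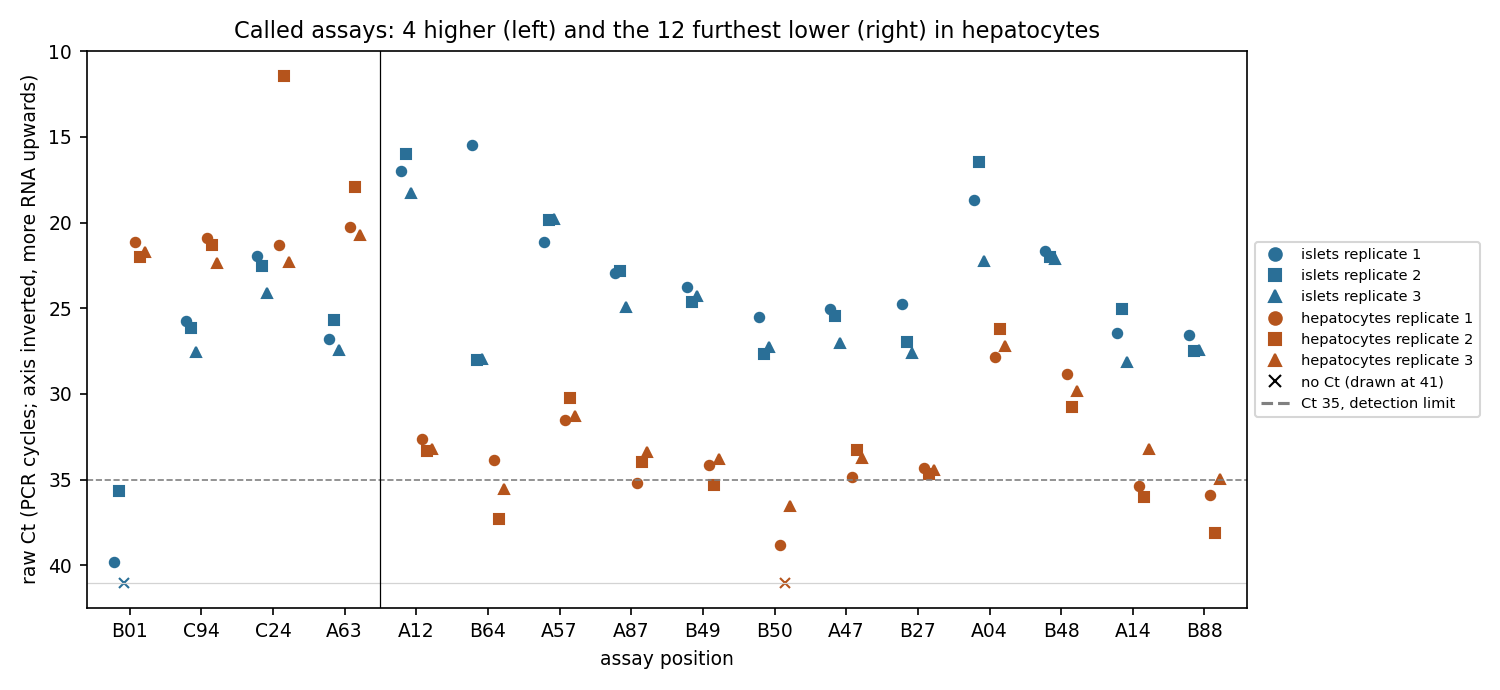
Raw Ct (y axis, cycles, inverted so that more RNA is up) of the 4 assays called higher and the 12 assays furthest lower in hepatocytes relative to RNU6, with one symbol per sample (islets blue, hepatocytes orange). The groups are apart in every assay but C24, where hepatocyte replicates 1 and 3, at 21.3 and 22.3, lie beside the islet samples, and B64 has one islet sample at 15.5.

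**Figure D4:**
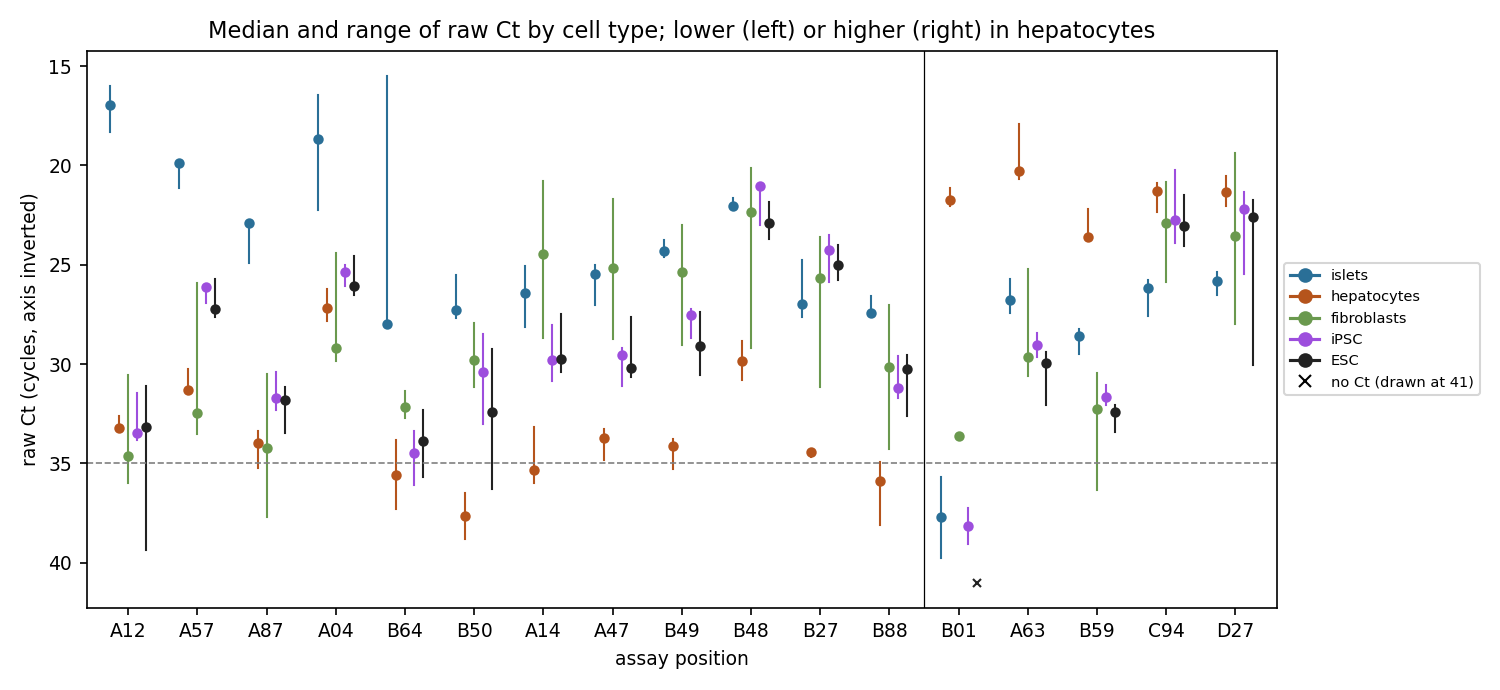
Median (point) and range (line) of raw Ct (y axis, cycles, inverted) over the samples with a Ct, in islets, hepatocytes, fibroblasts, iPSC and ESC, for the 12 assays furthest lower (left of the line) and 5 assays higher (right) in hepatocytes. A12 is high in islets alone with the other medians between 33.2 and 34.6, whereas at A14, A47, B48, B49 and B27 the hepatocytes are the low group.

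The most abundant assays were partly shared. By mean Ct the islet list was led by A12, C88, A04, C77, A65, A75, A57 and A82. C88 read 18.5, 18.4 and 18.4 in islets and 19.8, 21.3 and 21.7 in hepatocytes. C77 read 18.5, 19.1 and 20.1 in islets and 19.9, 17.5 and 21.3 in hepatocytes, an overlapping range. A82 read 21.2, 19.9 and 21.1 in islets and 24.9, 21.6 and 21.8 in hepatocytes, and was called lower relative to RNU6 (-4.46, limma adjusted p = 0.00851) but not relative to the mean Ct (-1.25, adjusted p = 0.358). Without islet replicate 3 the RNU6 value was -3.05 (adjusted p = 0.0586). In hepatocytes the list was A75, A53, C24, A64, A27, C77, A63 and A65. Of these 8, all but C77 and A63 had one hepatocyte sample with a Ct below 14, which pulled the mean down.

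Such very early Ct values were concentrated in 1 sample. Of the 6 samples, hepatocyte replicate 1 had 11 values below 14 cycles, 10 of them in set A. Hepatocyte replicate 2 had 3, hepatocyte replicate 3 had 1, islet replicates 1 and 3 had 1 and 2, and islet replicate 2 had 0. The other 20 samples held 6 in all, in 4 samples, with at most 2 in one. The next lowest Ct among the 6 samples was 14.7, in D18 of hepatocyte replicate 3. In every one of the 17 assays concerned except A65 a single sample was that low. A64 read 3.74 in hepatocyte replicate 1, against 26.7 and 26.3 in the other hepatocyte samples and 28.4, 28.4 and 29.1 in islets. A75 read 6.66 against 20.1 and 20.6, A40 read 7.28 against 29.5 and 28.4, and A34 read 10.4 against 32.6 and 32.8. A65 read 10.2 in hepatocyte replicate 1 and 7.75 in islet replicate 1, with the other 4 samples between 23.9 and 26.6. What produced these values was not tested.

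**Figure D5:**
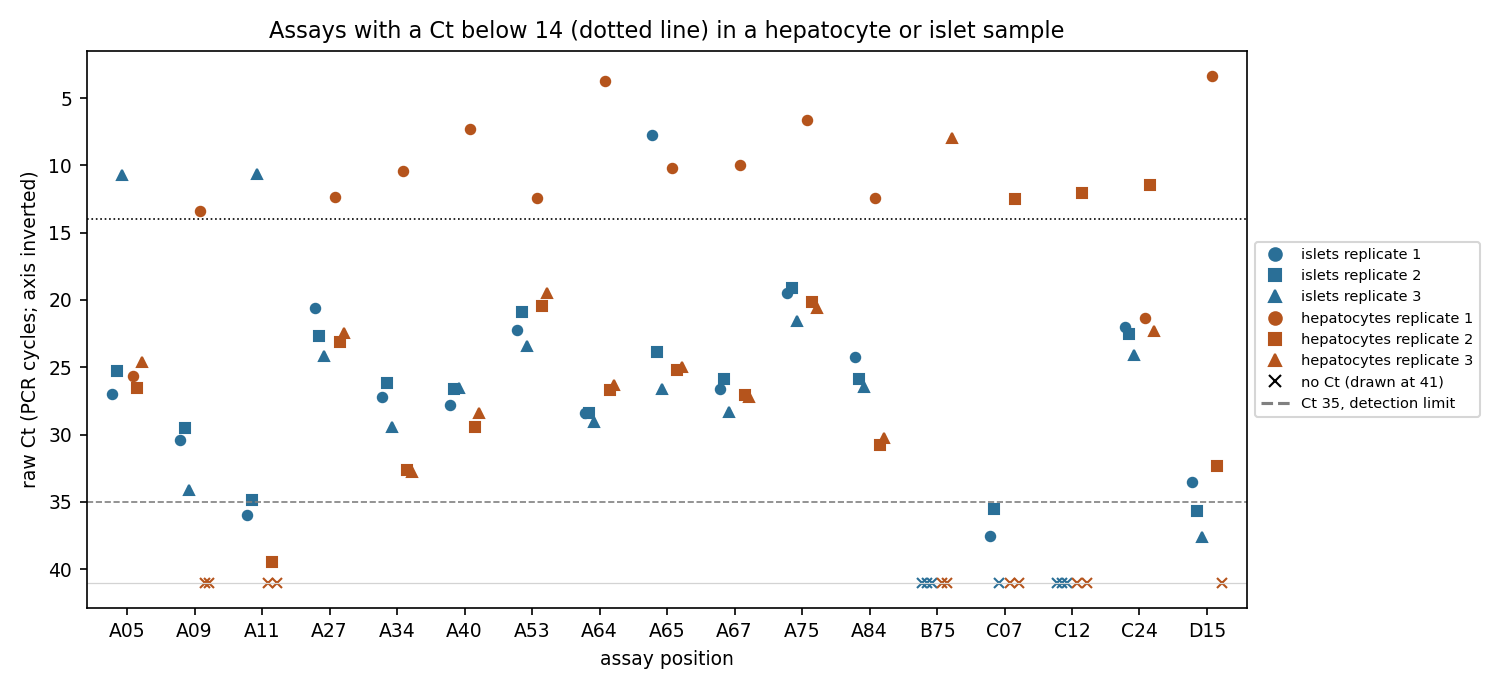
Raw Ct (y axis, cycles, inverted) of the 17 assays with a Ct below 14 (dotted line) in a hepatocyte or islet sample, one symbol per sample; crosses at 41 mark samples without a Ct and the dashed line is the detection limit of 35. Hepatocyte replicate 1 supplies 11 of the 18 early values, and apart from A65, with its pair of early values, the other samples of an assay lie at least 7 cycles away, A53 being the nearest with 12.4 against 19.5.

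Leaving these values out changed several results. The threshold of 14 was chosen after seeing the data. Between hepatocyte replicates 1 and 2 the correlation of raw Ct across the assays detected in all 6 samples was r = 0.652, and over the 165 of them without an early Ct it was 0.901. Between replicates 1 and 3 it went from 0.652 to 0.853, and between 2 and 3 from 0.868 to 0.875. These are correlations across assays, which are not independent. Over the 165 assays the islet samples correlated with each other at 0.764, 0.804 and 0.901. Between an islet and a hepatocyte sample r lay between 0.444 and 0.578 over the 165 assays. The mean Ct of the common assays of sets A and B in hepatocytes was 25.5, 26.9 and 26.9 with the early values. Without them it was 26.8, 26.9 and 26.9, and the SD went from 0.780 to 0.033. Replicate 1 was then averaged over fewer of these assays than replicates 2 and 3. Its lowest values had been removed by choice, so the smaller SD is no measure of agreement. Relative to RNU6, 124 assays (44.9%) were called lower and 3 (1.09%) higher without the early values. Relative to the mean Ct the counts were 69 (25%) and 29 (10.5%).

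Single assays changed more than these counts. A34 had a log2 fold change of -0.04 relative to RNU6 with all values. Without the early Ct it was -8.13 (limma adjusted p = 2.14e-05). The other hepatocyte samples were 3 cycles or more above every islet sample in raw Ct. The RNU6 difference between the remaining samples added to that gap. A84 read 24.3, 25.9 and 26.5 in islets and 12.4, 30.8 and 30.3 in hepatocytes, and went from -1.33 to -8.01 (adjusted p = 0.000124). A40 went from 2.88 to -5.01 (adjusted p = 0.0217). Relative to the mean Ct and without the early values, A34 stood at -3.93 (adjusted p = 0.000366), A84 at -3.82 (adjusted p = 0.000245) and A40 at -0.81 (adjusted p = 0.590, not called). A64 went from 7.36 to -0.87 relative to RNU6, and from 10.58 to 3.32 relative to the mean Ct. A53 went from 2.34 to -0.84 and from 5.56 to 3.36. In all, 7 assays were newly called lower relative to RNU6 (A09, A34, A40, A84, B26, D08 and D24) and 1, C24, was no longer called higher. In A09 the remaining hepatocyte samples had no Ct and were set to 35, so its fold change depends on that limit. B26, D08 and D24 had no early Ct in the hepatocyte and islet samples. Their fold changes relative to RNU6 stayed the same and only their adjusted p crossed the threshold. Under both references, with and without the early values, 3 assays were called higher (A63, B01 and C94) and 61 lower.

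Single low Ct values also ranked high in the authors' deposited table, in which a positive value for islets against hepatocytes means more RNA in hepatocytes. Of its 286 values, 230 are negative. In the authors' deposited table the largest positive values are 25.55 for C07, 19.56 for D01, 16.89 for A09, 15.31 for B01 and 14.91 for D15. In C07, D01 and A09 only 1 hepatocyte sample had a Ct, at 12.5, 17.1 and 13.4. Of the 10 largest positive values in the authors' deposited table, 7 had a hepatocyte Ct more than 5 cycles below both other hepatocyte samples, an empty one counting as later. The remaining 3 were B01, C94 and C29.

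Among the 176 assays detected in all 6 samples, spread within a cell type was otherwise small. Their median SD of raw Ct was 0.770 cycles in hepatocytes and 1.13 in islets. An SD above 5 cycles occurred in 10 and 3 of them. Taking every assay with a Ct in each sample of a cell type, the largest SD values belonged to other sets. They were those of A64, A34, A40, A84 and D18 in hepatocytes and A11, A65, A21, A05 and C26 in islets. Each of these had 1 sample far below the other two. D18 read 30.2, 33.7 and 14.7 in hepatocytes. In islets A21 read 16.4, 33.4 and 33.1, C26 read 19.6, 34.6 and 32.8, A05 read 26.96, 25.3 and 10.7, and A11 read 36.0, 34.9 and 10.7. Counting every Ct more than 5 cycles below both other samples of its cell type, there were 13, 5 and 4 in hepatocyte replicates 1, 2 and 3 and 11, 0 and 2 in islet replicates 1, 2 and 3.

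The 5 assays with a fold change nearest to 0 relative to the mean Ct were C40, A28, A36, A76 and D21, between -0.05 and 0.07 log2 units. They were chosen for that value, which is therefore a description with no test. A36 read 21.6, 21.6 and 23.6 in islets and 23.2, 23.5 and 22.4 in hepatocytes. Relative to RNU6 it stood at -3.17 (SE 1.13, limma adjusted p = 0.0304). A76 stood at -3.27 relative to RNU6 (adjusted p = 0.0301). Neither was called without islet replicate 3, at -2.22 and -2.34, nor without hepatocyte replicate 2 or 3. For both, the call relative to RNU6 was of the size of the median over all tested assays. A28 read 22.6, 22.8 and 24.2 in islets and 24.3, 23.97 and 23.8 in hepatocytes. D21 was also called lower relative to RNU6, at -3.95 (limma adjusted p = 0.0247). It was not called without islet replicate 3 or without hepatocyte replicate 1. C40 stood at -0.79 relative to RNU6 (adjusted p = 0.745). Both C40 and D21 were near the limit, with Ct between 30.8 and 38.2. Their values moved with the setting, D21 to 2.12 with the median Ct as reference and C40 between -2.34 and 1.13 with one sample left out and RNU6 as reference.

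B71 to B77, neighbouring positions detected in all 5 iPSC clones, had a Ct below 35 in 4 or fewer of the 6 hepatocyte and islet samples. The numbers were 0, 1, 4, 2, 1, 2 and 1 at B71, B72, B73, B74, B75, B76 and B77. At B75 the only such Ct was a very early value, 7.98 in hepatocyte replicate 3.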

How the data were processed

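The deposited table holds raw Ct values, in cycles, as the authors' instrument gave them, with a single column per sample. Whether the numbered samples of a cell type are technical replicates is not stated in the labels. The authors' deposited fold changes are log2 differences in Ct after subtraction of RNU6, the reference per the labels. The Ct software is not given in the sources used here. Per the labels, 303 miRNAs were assayed; all 315 positions were used. Of 1890 values in the 6 samples, 232 (12.3%) have no Ct. The authors' reference was recovered by least squares (largest residual 4.0e-09 cycles). Group means were fitted with limma 3.58.1 (lmFit, eBayes; R 4.3.3) on 18 columns shared with iPSC, fibroblasts and activin-treated clones, and adjusted by Benjamini-Hochberg. The recovery and the fit were tested on simulated data. Assays were named by rank among calls, abundance, detection, spread and nearness to 0; members and lists were chosen with earlier results of these data known. Same-numbered samples' deviations correlated at 0.061, 0.035 and 0.033, and differently numbered ones at -0.069 to 0.050. With 3 samples per cell type and early Ct left in, these values cannot exclude pairing. The labels give no pairing beyond the number, so the main fit did not pair samples. Alternatives covered the reference, limit, filter, samples and early or discordant Ct. Tables and plots were made in Python 3.11.15 with matplotlib 3.10.9, pandas 2.3.3 and numpy 2.4.6.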

Additional observations from a re-analysis of the deposited data

How the results depend on the processing

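Directions were followed across 23 other settings for 36 named assays, wherever a setting tested them, and counts of calls over all tested assays. The settings on early and discordant Ct, the reference of A and B for every set, and the median Ct were chosen after seeing the data. Against 4 higher and 117 lower calls relative to RNU6, the counts were 21 and 75 with the mean Ct of all 26 samples (median log2 fold change -0.46), 28 and 73 with that of the 6 samples (-0.29), 36 and 70 with the median Ct (-0.19), 9 and 76 with no reference, and 29 and 36 with quantile normalization (-0.21). They were 29 and 69 with Ct below 14 left out and the mean Ct (-0.25), 29 and 67 with discordant Ct left out and the mean Ct (-0.14), 2 and 56 when only assays below 35 in all samples were kept, a smaller set, and 2 and 67 with hepatocytes and islets fitted alone. With the reference of A and B for every set 2 were higher and 163 lower (-4.12). With the replicate number as a block, fitted on the 6 samples, 3 were higher and 49 lower; the samples share only a number. Leaving out one sample at a time gave 3 to 9 higher and 75 to 136 lower, with a median of -3.97 to -2.20; 8 were higher without hepatocyte replicate 1, 9 without hepatocyte replicate 3, and 75 lower without islet replicate 3. The cause of these shifts was not tested.

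The difference in detected assays was -79 at a Ct below 32, -41.7 below 38 and -34 with any Ct, and -55.8 to -51.3 with one sample left out. Assays of islets only numbered 60, 15 and 11 at those thresholds and 29 to 40 with one sample left out; assays of hepatocytes only were 0 with any Ct, where B01 has islet values, and 1 to 2 with one sample left out (2 without hepatocyte replicate 3, 2 without islet replicate 3).

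Of the 12 assays furthest lower, 11 kept their call in every setting that tested them, B64 being the exception (quantile normalization, and discordant Ct left out with the mean Ct). Of the 4 higher assays, 1, B01, did so, with a log2 fold change between 7.98 and 15.31. A63 and C94 each kept their call in 21 of 23 settings, and C24 in 10 of 23.

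Reversed signs concerned assays near 0 relative to the mean Ct and assays with an early Ct. Of the former, A28, A36, A76 and D21 stood at -3.19, -3.17, -3.27 and -3.95 relative to RNU6. All of these but A28 were called lower there. With the mean Ct of 26 samples, that of 6 samples and the median Ct, A34 was 3.17, 3.33 and 3.32 and A84 1.89, 2.05 and 2.03. With no reference A34 was 2.34 and A84 1.05, with quantile normalization 2.83 and 0.43, and A34 was 0.42 with the limit at 32. With one sample left out A34 ranged from -8.13 to 4.01 and A84 from -8.01 to 2.17, both lowest without hepatocyte replicate 1. A40 was -5.01 with early or discordant Ct left out and without hepatocyte replicate 1, and -0.81 and -0.84 with the mean Ct added. A53 was -0.84 and A64 -0.87 in the same settings with RNU6. With one sample left out A40 ranged from -5.01 to 7.11, A53 from -0.84 to 4.20 and A64 from -0.87 to 11.60. Among assays near 0, with the mean Ct of 26 samples, of 6 samples, the median Ct, the mean Ct without early values and the mean Ct without discordant values, A28 was 0.023, 0.18, 0.17, 0.33 and 0.34, A36 0.048, 0.21, 0.19, 0.35 and 0.37, and C40 0.015, 0.44, 0.53, 0.23 and 0.12. A76 was 0.11, 0.093, 0.25 and 0.27 under the same references except the first. C40 was also 0.94 with quantile normalization, 0.41 with the limit at 32, and -2.34 to 1.13 with one sample left out. D21 was 0.071 with the mean Ct of 26 samples and without early values, 0.087 without discordant values, 2.12 with the median Ct and 0.26 with quantile normalization. Ct values near 35 limit the precision of low assays.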
